A study of Simmondsia chinensis with 44 samples.

Results

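Some jojoba genes held a nearly level transcript abundance from early to late seed development and were almost without transcript in the dry seed. The 200 genes described here, of 23491 in the deposited tables, were selected on measured values of the time course. A gene was taken when its mean normalized counts, with 1 added, stayed within 2-fold over early, mid and late seed, were at least 100 in late seed, and were at least 16-fold higher in the lowest of these stages than in dry seed. There were 242 such genes, 1.03% of the table, and the 200 with the highest late-seed mean were kept. These stage values are therefore a description, and no test was made on them.

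Jojoba (Simmondsia chinensis) is a desert shrub. RNA sequencing was done on 44 seed libraries, all from germplasm PARL# 940, and no treatment is named. The time course held 24 libraries, 6 each of early, mid, late and dry seed. The dissection series held 20 libraries of mid-stage seed, 5 each of seed coat, cotyledon, embryonic axis and whole seed. The labels do not say whether the time-course or dry seeds kept their coat, nor whether libraries of a group came from separate plants, so p-values here reflect library-to-library spread that could be technical alone. Total counts were 7713214 to 16014089 per library in the developing stages, 15658880 to 23773845 in dry seed and 9882334 to 32758764 in the dissection series. The files do not pair gene identifiers with names or functions. Genes are therefore given by identifier, and the tissue labels could not be checked against marker genes.

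A maturing seed first grows and fills its reserves, which in jojoba are liquid wax esters held mostly in the cotyledons, and then dries. Transcription declines as water is lost, and the dry seed carries a set of stored messenger RNAs into germination, while other messages disappear before or during drying. The cotyledons and the axis are parts of the embryo. The seed coat is maternal tissue that surrounds the embryo, supplies it during filling and in many species dies at maturity. In bulk samples such as these, fewer cells of a type and less RNA per cell cannot be told apart.

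The group was a small fraction of the steady genes. Of 8443 genes that met the steadiness and late-seed criteria, 242 (2.87%) were at least 16-fold lower in dry seed than in the lowest developing stage, 454 (5.38%) were 4-fold to 16-fold lower and 712 (8.43%) were 2-fold to 4-fold lower. Another 3269 (38.7%) were less than 2-fold lower or within the developing range, and 3766 (44.6%) were above the highest developing stage. The last gene kept had a late-seed mean plus 1 of 202.3 and the first left out had 197.1. At the dry-seed limit, the nearest ratios were 16.3 inside and 15.95 outside, and at the steadiness limit 1.9997 inside and 2.0005 outside.

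Within development the genes were level but not flat. Their median normalized count was 623 in early, 606 in mid and 554 in late seed, with quartiles of 391 to 1296, 382 to 1238 and 342 to 1103. The median ratio of the highest to the lowest stage mean was 1.57, with 82 genes under 1.5 and 118 between 1.5 and 2. The highest stage was early seed for 80 genes, mid seed for 63 and late seed for 57, and the lowest stage was late seed for 89. A stepwise decline through the 3 stages was seen in 50 genes and a stepwise increase in 32. For 119 genes the libraries of every pair of stages overlapped. Libraries of mid and early seed did not overlap for 44 genes (22.0%), against 26.7% of all genes with a count in the time course and 24.5% of the other steady genes. Between late and mid seed this held for 25 genes (12.5%), against 31.3% and 28.5%, and between late and early seed for 44 (22.0%), against 42.3% and 36.1%. Nothing is read from these shares, since the steadiness criterion used the same stage values. The spread between libraries was moderate, with a median coefficient of variation of 16.03%, 17.5% and 21.3% in early, mid and late seed.

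Dry seed lay far below. The median normalized count was 9.79, with quartiles of 3.72 and 21.4 and a highest value of 250.5, and the median coefficient of variation was 59.1%. Every dry library was below every developing library in all 200 genes, against 20.8% of all genes with a count in the time course and 20.5% of the other steady genes, a separation that the 16-fold criterion largely fixes. On the scale of mean plus 1 the lowest developing stage was a median of 41.5 times the dry level, with quartiles of 25.2 and 96.7. The ratio was under 32 in 81 genes, between 32 and 64 in 41 and at least 64 in 78. These ratios understate the difference where the dry level is near 0, because 1 was added to both sides.

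**Figure D1:**
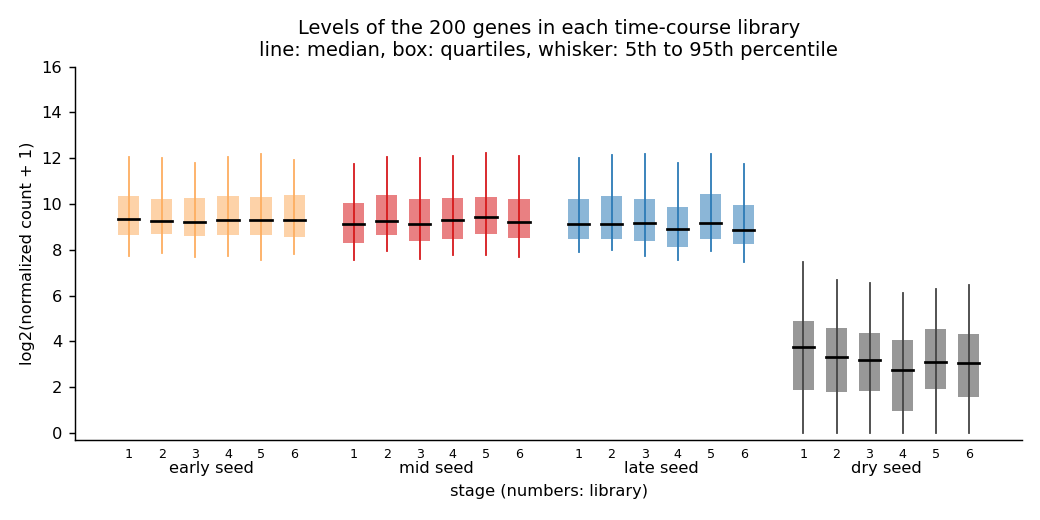
Normalized counts of the 200 genes in each time-course library, as log2(normalized count + 1). Boxes span the quartiles, lines mark the median and whiskers reach the 5th and 95th percentiles; medians are 594 to 649 in early, 554 to 683 in mid, 468 to 581 in late and 5.81 to 12.3 in dry libraries.

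The word lost applies in full to few of them. Only 6 of the 200 were without a single read in dry seed, and 27 had at most 3 counts in each. A count in every dry library was present for 147 genes, and 96 had over 3 counts in every one. The genes had a median of 74 counts and at most 1882 counts over all dry libraries together, out of 121702693. The dry mean was a median of 1.76% of the late mean and at most 5.82%. It was under 1% in 73 genes and under 0.1% in 15.

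The 6 genes without a dry count ranked 1, 3, 53, 74, 116 and 121 by late-seed mean, so they included some of the most counted as well as average members. Against a floor of 3 counts per library, their dry level was at least 26364-fold, 7472-fold, 429-fold, 308-fold, 194.5-fold and 187-fold lower than late seed, in that order. In the dissection series 5 of the 6 had their highest mean in seed coat and 1 in cotyledon. Of all 200 genes 62.0% were highest in seed coat, and of all genes tested 37.1%. Nothing is read from so few genes. Thinned to the smallest dry library, 10 genes had no dry count.

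**Figure D2:**
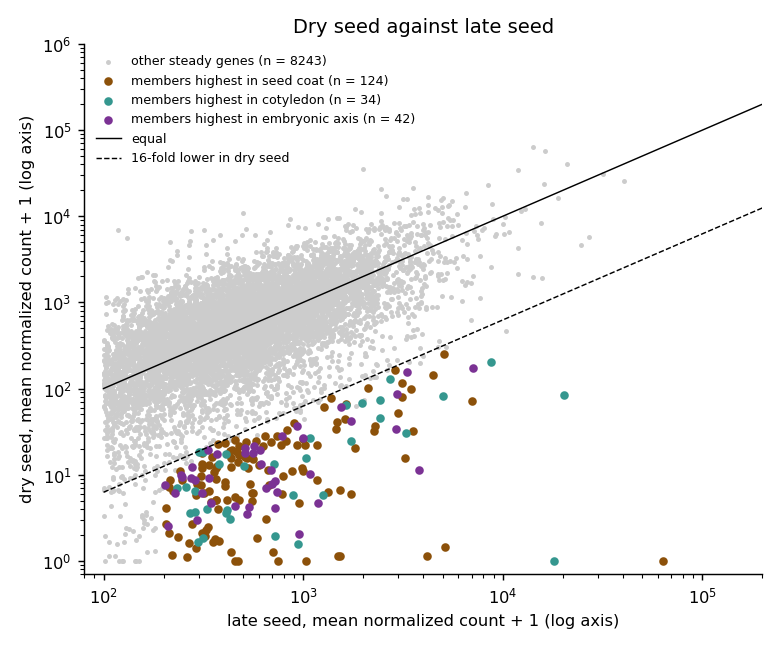
Dry-seed mean against late-seed mean, each as normalized count + 1 on log axes, with the 200 genes coloured by the dissected tissue of their highest mean and the other 8243 steady genes in grey. The solid line marks equal levels and the dashed line a 16-fold lower dry level; the genes lie under the dashed line by their selection, in all colours.

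Counts are not divided by transcript length, so the order of genes by normalized count also depends on length. The highest late-seed mean belonged to Sc18g0004510. Its normalized count had a lowest, median and highest value of 15505, 31771 and 52939 in the 6 early libraries, 43524, 52854 and 63963 in mid and 53955, 63697 and 71751 in late libraries. All 6 dry libraries had 0. Every late library was above every early library, while mid seed overlapped both. Its stage means thus increased within the 2-fold band allowed, and no read was left in dry seed.

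The gene with the next highest late-seed mean was Sc05g0007600. Its normalized count had a lowest, median and highest value of 13534, 22027 and 25611 in early, 21059, 31347 and 42909 in mid, 9659, 18948 and 32161 in late and 4.82, 32.2 and 226 in dry libraries. The 3 developing stages overlapped. The dry libraries were uneven, with 226 in library 1 and 184 in library 4, and 4.82 to 44.7 in the others. Another highly counted gene, next in rank and without a dry count, had 30420 ± 4648 in early, 32455 ± 12348 in mid and 18059 ± 11564 in late seed (SD, n = 6), and its late libraries spanned 3552 to 30170.

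The 200 genes took 2.60% ± 0.15 of all counts in early, 2.63% ± 0.20 in mid, 2.11% ± 0.28 in late and 0.0280% ± 0.0111 in dry seed (SD, n = 6 each). Single dry libraries gave them 3302 to 7663 counts. The share is unevenly spread: in late seed the most counted gene took 20.9% of it, the first 3 took 33.1% and the first 10 took 47.0%. Without Sc18g0004510 the share was 2.32% ± 0.09 in early, 2.20% ± 0.17 in mid and 1.67% ± 0.29 in late seed. The late share fell into separate values, 1.76% in library 4 and 1.74% in library 6, against 2.23% to 2.38% in the other late libraries. Leaving out libraries 4 and 6 gave 2.28%.

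The same late libraries stood low gene by gene. Of the 200 genes, 70 (35.0%) had their lowest late value in library 4 and 84 (42.0%) in library 6, while among the other steady genes these shares were 16.2% and 26.4%. In dry seed, library 1 held the highest value for 90 of the 194 genes with any dry count (46.4%), against 23.7% of the other steady genes. Its share of counts was 0.0489%, and the other dry libraries lay between 0.0158% and 0.0275%. With library 1 left out the dry share was 0.0239%. With late libraries 4 and 6 left out, 262 genes met the rule, and 183 of the 200 with the highest late mean were the same. With dry library 1 left out these numbers were 257 and 189.

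**Figure D3:**
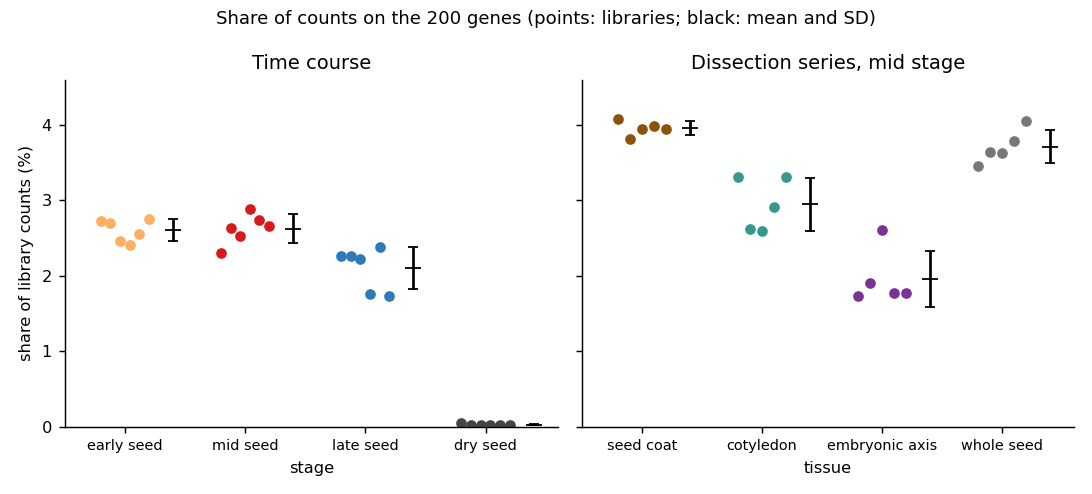
Share of each library's total counts on the 200 genes, in percent, with each group's mean ± SD (n = 6 for stages, n = 5 for tissues). Dry libraries lie at 0.0158% to 0.0489%, developing libraries at 1.74% to 2.89%, seed coat at 3.82% to 4.08%, cotyledon at 2.60% to 3.31%, embryonic axis at 1.73% to 2.60% and whole seed at 3.46% to 4.06%.

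The dissection series took no part in the choice of genes, and it shows in which parts of the mid-stage seed their transcripts were found. All 200 had a mean of over 10 normalized counts in each dissected tissue, as had 99.96% of the other steady genes. The median normalized count was 1297 in seed coat, 712 in cotyledon, 527 in embryonic axis and 1074 in whole seed. The genes took 3.96% ± 0.09 of counts in seed coat, 2.95% ± 0.35 in cotyledon, 1.95% ± 0.37 in embryonic axis and 3.71% ± 0.22 in whole seed (SD, n = 5 each). Whole-seed libraries, at 3.46% to 4.06%, all lay above the mid-seed libraries of the time course, at 2.31% to 2.89%. The cause of this mismatch between mid-stage seeds was not tested. Cotyledon libraries 1 and 5 stood apart, with 3.31% each against 2.60% to 2.92% in the other 3. That gap in share rested on Sc18g0004510. Without this gene, cotyledon libraries 1 to 5 had 2.62%, 2.32%, 2.44%, 2.85% and 2.29%. The median normalized count of the 200 genes was 853 and 841 in libraries 1 and 5, against 576 to 664 in the others. Axis library 3 had 2.60% against 1.73% to 1.91% in the other 4, and without it the axis share was 1.79%.

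By group mean, 124 of the 200 (62.0%) were highest in seed coat, 34 (17.0%) in cotyledon and 42 (21.0%) in embryonic axis. Among the other 8243 steady genes the shares were 39.6%, 27.6% and 32.8%. The lowest tissue was embryonic axis for 105 (52.5%), against 33.9% of the other steady genes. Whole seed lay within the range of the 3 parts for 192 genes (96.0%), against 81.1% of the other steady genes. That range was wider for the 200 genes, as given next, so these shares are not directly comparable. Differences among tissues were wide: the highest tissue mean was a median of 3.34 times the lowest, and over 4 times for 92 genes (46.0%), whereas among the other steady genes the median ratio was 1.56 and 3.42% exceeded 4. The 200 genes were chosen for a steady level across stages, and most were not even across the parts of the seed.

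The spread among tissues was wider still in genes that left the dry seed without being steady before. Among genes tested in the dissection series, 693 were not steady but were at least 16-fold below late seed in dry seed. Their late-seed mean was at least 100. Of these, 50.8% were highest in seed coat, against 62.0% of the 200. Their median ratio of highest to lowest tissue was 5.76, against 3.34, and 64.1% exceeded 4-fold, against 46.0%. No test was made between these sets of genes.

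**Figure D4:**
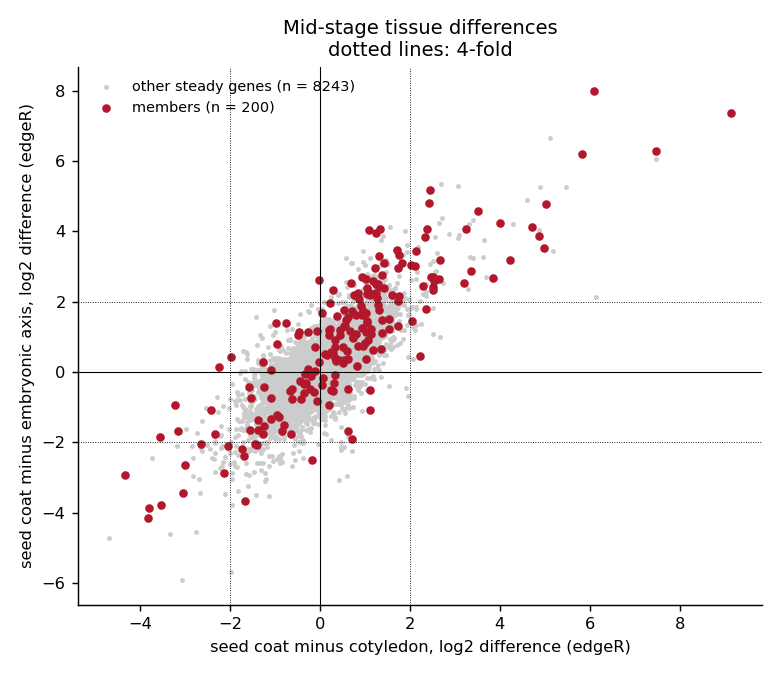
Fitted log2 difference of seed coat minus cotyledon (horizontal axis) against seed coat minus embryonic axis (vertical axis) for the 200 genes; dotted lines mark 4-fold. Points to the upper right are higher in coat than in both embryonic tissues; the medians are 0.63 and 1.12.

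In seed coat against cotyledon, 113 of the 200 genes were higher and 52 lower at an adjusted p under 0.05, while 35 did not pass (edgeR quasi-likelihood test, Benjamini-Hochberg adjustment over 18499 genes tested; all 200 were tested). The share higher, 56.5%, compares with 28.3% of all genes tested and 30.6% of the other steady genes. The share lower, 26.0%, compares with 29.7% and 26.9%. The median log2 difference was 0.63 for the 200 genes, -0.0022 for all genes tested and 0.05 for the other steady genes. At 2-fold or more, 75 were higher and 33 lower, while 13.3% and 16.2% of all genes tested and 6.59% and 5.82% of the other steady genes were. Without cotyledon libraries 1 and 5 the counts were 117 higher and 52 lower. Over all genes tested in that fit they were 5678 higher and 6034 lower.

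The largest positive difference was that of Sc08g0003160. Its normalized counts were 33345, 41607, 37588, 35594 and 33545 in seed coat libraries 1 to 5, and 11.4, 28.2, 97.2, 106 and 82.2 in cotyledon libraries 1 to 5. The groups were far apart, with a log2 difference of 9.15 ± 0.54 (SE; edgeR adjusted p = 1.01e-11). Its time-course means were 2980, 5266 and 4154 in early, mid and late seed, and all dry libraries together held 1 count. The next was Sc09g0000380, with 4763, 5338, 6237, 5914 and 4743 in seed coat and 34.2, 24.9, 35.5, 37.0 and 23.2 in cotyledon, and a log2 difference of 7.47 ± 0.28 (SE; edgeR adjusted p = 2.40e-14). It averaged 1340, 1238, 671 and 6.53 in early, mid, late and dry seed, so its late mean was the lowest of the developing stages.

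The largest negative difference was that of Sc05g0007600, the second of the most counted genes. It had 8767, 8053, 7010, 12597 and 6371 in seed coat and 131521, 159954, 213587, 295218 and 82972 in cotyledon, a log2 difference of -4.35 ± 0.36 (SE; edgeR adjusted p = 2.81e-09). The cotyledon values were uneven. The lowest was above every coat library, which the rule for naming genes required. Sc16g0002990 had 158, 147, 157, 159.5 and 107 in seed coat and 1770, 1887, 2631, 3167 and 1136 in cotyledon, a log2 difference of -3.83 ± 0.24 (SE; edgeR adjusted p = 3.53e-11). Its time-course means were 1356, 1367, 956 and 1.05 in early, mid, late and dry seed.

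In seed coat against embryonic axis, 128 genes were higher and 53 lower, and 19 did not pass (edgeR, same fit). The share higher, 64.0%, compares with 31.5% of all genes tested and 33.7% of the other steady genes, and the share lower, 26.5%, with 33.0% and 28.2%. The median log2 difference was 1.12, against -0.05 for all genes tested and 0.04 for the other steady genes. At 2-fold or more, 106 were higher and 33 lower, while 16.9% and 19.6% of all genes tested and 10.2% and 7.78% of the other steady genes were.

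Sc09g0001340 had the largest positive difference from axis. Its normalized counts were 17554, 18753, 18775, 21719 and 16786 in seed coat and 45.5, 99.5, 108.5, 44.9 and 74.5 in embryonic axis, a log2 difference of 7.99 ± 0.28 (SE; edgeR adjusted p = 9.41e-15). It averaged 277.5 in cotyledon, so it was low in both parts of the embryo. Its stage means were 3712, 3272, 2263 and 31.0 in early, mid, late and dry seed. Sc08g0003160 came next, with 198, 133, 169, 492 and 134 in axis beside the coat values above, a log2 difference of 7.37 ± 0.49 (SE; edgeR adjusted p = 5.51e-11).

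The negative side was led by Sc16g0002990, which had 3221, 3248, 1972, 2505 and 2363 in axis and a log2 difference of -4.16 ± 0.25 (SE; edgeR adjusted p = 8.98e-12). Both embryonic tissues were above the coat in every library, which the rule for naming genes required in both comparisons. Sc05g0009270 had 84.3, 60.9, 102, 72.5 and 60.4 in seed coat and 1251, 1131, 939, 1116 and 1165 in axis, a log2 difference of -3.85 ± 0.27 (SE; edgeR adjusted p = 1.45e-10). It averaged 1078 in cotyledon, and 532, 569, 453 and 3.31 in early, mid, late and dry seed.

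**Figure D5:**
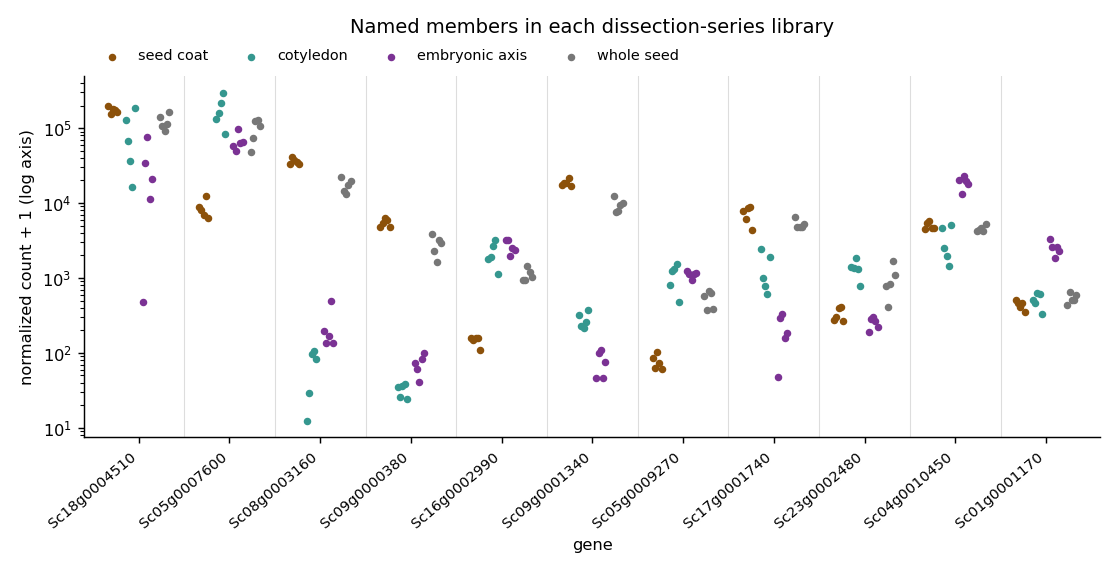
Normalized count + 1, on a log axis, of the 11 named genes in every library of seed coat, cotyledon, embryonic axis and whole seed (n = 5 each). Sc08g0003160, Sc09g0000380 and Sc09g0001340 are high in coat and low in both embryonic tissues, Sc16g0002990 and Sc05g0009270 the reverse, and Sc18g0004510 spreads over 480 to 75655 in axis.

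In cotyledon against embryonic axis, 82 genes were higher and 36 lower, and 82 did not pass (edgeR, same fit). The share higher, 41.0%, compares with 22.9% of all genes tested and 23.5% of the other steady genes, and the share lower, 18.0%, with 20.5% and 19.2%. The median log2 difference was 0.31, against -0.01 for all genes tested and 0.01 for the other steady genes. At 2-fold or more, 53 were higher and 15 lower, while 9.69% and 9.3% of all genes tested and 3.71% and 2.57% of the other steady genes were. Without cotyledon libraries 1 and 5 the counts were 66 higher and 39 lower. Over all genes tested in that fit they were 4107 higher and 3894 lower.

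Sc17g0001740 had the largest positive difference. Its normalized counts were 2424, 983, 777, 604 and 1912 in cotyledon and 46.3, 293, 330.5, 157 and 183 in axis, a log2 difference of 2.73 ± 0.41 (SE; edgeR adjusted p = 1.64e-05). Cotyledon libraries 1 and 5 were the highest, and without them the log2 difference was 1.96. The gene was higher still in seed coat, at 7201 ± 1902 (SD, n = 5). Sc23g0002480 had 1386, 1360, 1858, 1314 and 770 in cotyledon and 191.5, 285, 304, 266 and 220 in axis, a log2 difference of 2.40 ± 0.28 (SE; edgeR adjusted p = 8.15e-07). Its coat mean was 331.5, near the axis level, so cotyledon stood highest of the 3 parts.

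Sc04g0010450 had the largest negative difference, with 4576, 2480, 1972, 1443 and 5145 in cotyledon and 20459, 13297, 23269, 19621 and 17886 in axis, a log2 difference of -2.60 ± 0.26 (SE; edgeR adjusted p = 1.28e-07). Cotyledon libraries 1 and 5 were nearest to its coat mean of 4980, and without them the log2 difference was -3.27. Its stage means were 1794, 1133, 1082 and 9.10 in early, mid, late and dry seed. Sc01g0001170 had 500, 458, 626, 603 and 329 in cotyledon and 3339, 2561, 1838, 2561 and 2310 in axis, a log2 difference of -2.33 ± 0.18 (SE; edgeR adjusted p = 4.52e-09). Its coat mean was 438, so axis stood alone.

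The most counted gene, Sc18g0004510, was high in coat and irregular in the embryo. It had 198635, 153227, 178388, 175321 and 166504 in seed coat, 129713, 66554, 35937, 16565 and 188112 in cotyledon, and 480, 33904, 75655, 11163 and 21167 in axis. Coat exceeded axis in every library, with a log2 difference of 2.64 ± 0.74 (SE; edgeR adjusted p = 0.00388), and of 3.37 without axis library 3 (edgeR adjusted p = 0.000844). Seed coat against cotyledon did not pass at 1.03 ± 0.71 (SE; edgeR adjusted p = 0.218). Without cotyledon libraries 1 and 5 it was 2.17 (edgeR adjusted p = 0.0287). Those libraries held the 2 highest cotyledon values of this gene, so leaving them out could only raise the difference. Cotyledon against axis did not pass either, at 1.61 ± 0.72 (SE; edgeR adjusted p = 0.0746). That difference passed with DESeq2, at 1.62 (adjusted p = 0.0172), without cotyledon library 4, at 1.90 (edgeR adjusted p = 0.0356), and without axis library 3, at 2.39 (edgeR adjusted p = 0.0137). It was 0.47 without cotyledon libraries 1 and 5 (edgeR adjusted p = 0.643). Cotyledon library 4 was the lowest and axis library 3 the highest of its group for this gene. Nothing is concluded from fits that leave out such extremes.

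The order of the cotyledon libraries was not the same for every coat gene. Sc18g0004510 was highest in cotyledon libraries 5 and 1 and lowest in library 4. Sc09g0001340 and Sc17g0001740, also highest in coat, had their 2 highest cotyledon values in libraries 1 and 5. Sc08g0003160, far higher in coat, was instead lowest in cotyledon libraries 1 and 2 and highest in library 4. Sc09g0000380 was lowest in library 5 and highest in library 4. Of named genes low in coat, Sc05g0007600, Sc16g0002990 and Sc05g0009270 had their 2 lowest cotyledon values in libraries 1 and 5. Sc23g0002480 was lowest in library 5 but not next lowest in library 1. The cause of these orders was not tested.

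A gene was called preferred in a tissue when it was at least 4-fold higher there than in each of the other dissected tissues, at an adjusted p under 0.05 by edgeR in both contrasts, and poor in it when at least 4-fold lower than in each by the same test. Seed coat preferred genes numbered 30 of the 200 (15.0%), against 3.35% of all genes tested and 0.497% of the other steady genes. Cotyledon preferred genes numbered 2 (1.0%), against 1.25% and 0.0%, and embryonic axis preferred genes 1 (0.5%), against 2.92% and 0.158%. Seed coat poor genes numbered 9 (4.5%), against 6.41% and 0.364%, and axis poor genes 7 (3.5%), against 1.35% and 0.17%. No gene was cotyledon poor. Group means within 2-fold over the 3 dissected tissues were found for 44 genes (22.0%), against 51.2% of all genes tested and 75.8% of the other steady genes. The seed coat count was 46 without cotyledon libraries 1 and 5. The share over all genes was not taken in that fit, so nothing is read from the rise. In the 693 genes that left dry seed without having been steady, 16.6% were seed coat preferred and 13.0% were even.

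Of the 30 coat preferred genes, 12 were highest in early seed, 9 in mid and 9 in late seed, and 1 had no dry count. Of the 44 even genes, 20 were highest in early seed, 9 in mid and 15 in late seed, and none was without a dry count. The lowest developing stage was a median of 76.6 times the dry level for coat preferred, 51.8 for coat poor, 125 for axis poor and 26.4 for even genes, on the scale of mean plus 1. The value of 9063 for the 2 cotyledon preferred genes is only the midpoint between them. It is set mainly by the 1 without a dry count, whose lowest developing mean was 18059. The axis preferred gene had 113. These ratios come from values that chose the genes, and no test was made between the classes.

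Split by the tissue of the highest mean, the genes gave the following drift over development. The late mean was below the early mean in 84 of the 124 genes highest in coat, in 17 of 34 highest in cotyledon and in 18 of 42 highest in axis, with median late to early ratios of 0.825, 1.01 and 1.09. Early seed was the highest stage for 61 of the 124 coat genes. The dry level stayed low in all of them, at a median of 1.69% of the late level for coat, 1.52% for cotyledon and 2.39% for axis. Late library 4 held the lowest value for 48 coat, 12 cotyledon and 10 axis genes, and late library 6 for 42, 15 and 27. The drift rests on stage values that also chose the genes, so no test was made.

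The identifiers carry a prefix that the files do not explain. The 200 genes fell into 25 of its 27 values, with 1 to 15 genes in each, and 3 pairs were neighbours in the order of the table. No positions are given in the files used here, and no sequence of these genes was analysed here.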

How the data were processed

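RNA was extracted by a hot-borate method and made into stranded mRNA libraries, per the labels' protocols. Tools included Trimmomatic, STAR and DESeq2, per the submitters' processing notes. The counter, build, annotation and strand use are not given in sources used here, so near-identical copies and antisense overlap may alter values of single genes.

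The authors deposited whole-number counts per gene and, separately for each series, the same tables normalized. The normalized signal deposited by the authors was the count divided by 1 factor per library (largest relative deviation 1.07e-09 and 1.11e-09 over 23491 genes), so levels were not compared between the series. Every pair of replicate libraries differed by more than counting noise (chi-square divided by its degrees of freedom at least 8.84 and 10.9 in the 2 series), so all were kept as separate libraries.

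Genes were chosen from stage means of the normalized table plus 1. The members, lists and tests were chosen with earlier results of these data known. Tissues were tested on the counts with edgeR 4.0.16 in R 4.3.3 (TMM, filterByExpr, glmQLFit, glmQLFTest, all 4 tissue groups in 1 fit, Benjamini-Hochberg adjustment over 18499 genes, threshold 0.05). Named genes are the 2 with the largest positive and the 2 with the largest negative difference per comparison, among those with an adjusted p under 0.05, a mean of 10 CPM or more on the higher side and no overlap of libraries, and the 2 with the highest late-seed mean. Genes outside that rule carry no identifier. Where a group held no reads, the bound used 3 counts in each library, which covers counting error only. Alternatives were DESeq2 1.42.0, DESeq2 size factors, upper-quartile scaling, a replicate block, no filter, other limits of the rule and each library left out in turn. Plots were drawn with matplotlib 3.10.9, and tables were made with pandas 2.3.3 and numpy 2.4.6 under Python 3.11.15.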

Additional observations from a re-analysis of the deposited data

Results flagged for a closer look

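Over the shares of counts and the named genes, 96 groups of libraries were looked at, and in 9 of them the highest or lowest library lay far from the rest, by Dixon's criterion at the 95% level. Chance gives about 5% of such groups. No explanation was tested.

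The share of counts on the 200 genes was 0.0489% in dry library 1, against 0.0158% to 0.0275% in the other dry libraries. It was 2.60% in axis library 3, against 1.73% to 1.91% in the other axis libraries. Sc08g0003160 had a normalized count of 0.881 in dry library 1, which is 1 read, and 0 in the other dry libraries. The same gene had 492 in axis library 4, against 133 to 198 in the others. Sc16g0002990 had 107 in seed coat library 5, against 147 to 159.5. Sc05g0009270 had 754 in early library 5, against 434 to 547. Sc17g0001740 had 6532 in whole-seed library 1, against 4743 to 5256. Sc23g0002480 had 671 in mid library 5, against 407 to 495, and 67.4 in dry library 3, against 0.657 to 23.2 in the other dry libraries.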

How the results depend on the processing

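No direction turned and no called difference of a named gene was lost in the alternatives run. Most of these differences were chosen as the largest without overlap of libraries, so this was largely fixed by the choice. The calls among the 200 genes, 165, 181 and 118 in the 3 comparisons, were 147 to 169, 174 to 180 and 108 to 130 with each library left out in turn. Whether the replicate numbers pair the libraries is unknown. Of 15 same-number correlations of deviations from group means, 2 passed 0.1 (range -0.29 to 0.15). Pairs with different numbers were not looked at, so these values cannot settle it. With the replicate block, 167, 180 and 115 were called. Seed coat preferred genes numbered 46 without cotyledon libraries 1 and 5 and 68 at 2-fold, against 30. Cotyledon preferred genes numbered 4 and 10, against 2. Axis preferred genes numbered 2 with no filter, the replicate block or upper-quartile scaling, 6 at 2-fold and 1 to 3 with each library left out, against 1. Shares of preferred genes over all genes were not taken in these alternatives. The rule was met by 421 genes at an 8-fold fall, 151 at 32-fold, 92 at 1.5-fold steadiness and 434 at 3-fold, against 242, and by 235 to 257 with each library left out. TMM scaling gave 237 genes, with 192 of the 200 highest the same. Genes without a dry count numbered 27 when up to 3 counts per library were allowed and 10 after thinning, against 6. Without Sc18g0004510 the shares of counts were 2.32%, 2.20% and 1.67% in early, mid and late seed, 2.96% in seed coat, 2.51% in cotyledon and 3.02% in whole seed, and with all 242 genes 4.07% in seed coat. Dry values rest on few reads, a median of 74 counts per gene over all dry libraries.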
